A study of Mus musculus with 36 samples.

Results

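CHD4 sites in mouse embryonic stem cells (ESCs) were compared according to whether MBD3 was found at the same place. A CHD4 site was a peak of CHD4 replicate 1 that overlapped a peak of CHD4 replicate 2 by at least 1 bp, and an MBD3 site was defined in the same way from the MBD3 replicates. This gave 8246 CHD4 sites and 1508 MBD3 sites out of the 104813 peaks in the 9 peak lists analysed. An MBD3 site was overlapped by 1293 CHD4 sites, and 6953 CHD4 sites lacked one. On chromosomes 1 to 19, X and Y, where sites were placed on genes, these numbers were 1292 and 6940. By the labels the cells were wild-type R1 ESCs, an established mouse line, grown in serum with LIF and the 2i inhibitors of MEK and GSK3. MBD3 and CHD4 were precipitated with antibodies to the endogenous proteins, and the labels name no tag or transgene. The peak names of CHD4 replicate 2 are at odds with this, as given below. Lists of SIN3A from the same wild-type line, made without and with spike-in chromatin, of GFP-tagged ZFP296 from a ZFP296-BAC line in the same medium, and of MBD3 and CHD4 from neural progenitor cells (NPCs) derived from R1 ESCs and kept in NPC medium served as other readouts at these sites. The parental line of the tagged cells is R1 in the labels and KH2 in the methods of the study. All names in the CHD4 replicate 2 list mention a Zfp219 BAC although its label is wild-type R1 ESCs, and the list was used as labelled.

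The nucleosome remodeling and deacetylase (NuRD) complex joins nucleosome remodeling by the ATPase CHD4 with histone deacetylation by HDAC1 and HDAC2. MBD3 is a scaffold subunit that links the deacetylase module to the remodeling module, and ESCs that lack it fail to silence pluripotency genes properly when they should differentiate. CHD4 also occurs outside NuRD, for example together with the zinc finger protein ADNP and HP1 proteins.

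To show what the DNA under both classes looked like, the central 200 bp of 7 CHD4 sites are printed from the mm9 reference, 5′ to 3′. Capitals mark a match, on either strand, to the searched strings. These were the POU5F1 octamer ATGCAAAT, the SOX2 string CCATTGT, the ESRRB string TCAAGGTCA, the KLF string GGGTGTGG, the STAT3 string TTCCNGGAA, the TEAD string GGAATG, the AP-1 string TGANTCA, the telomere unit TTAGGG, the E-box CACGTG, the ETS string CCGGAAGT, the NRF1 string GCGCATGCG, the YY1 string AAGATGGCG and the CTCF string AGGGGGC. The E-box reads the same on both strands, as do the STAT3 and AP-1 strings, and the STAT3 and TEAD strings share the letters GGAA, so that their matches can overlap. The first 3 sequences are sites with the highest CHD4 value in replicate 1 in their class. Dll3 lies in the window around a transcription start and has no MBD3 peak, Jam2 lies outside these windows and has MBD3, and Bcar3 lies outside and has no MBD3 peak.
Dll3, chr7:29083938-29084137, plus strand: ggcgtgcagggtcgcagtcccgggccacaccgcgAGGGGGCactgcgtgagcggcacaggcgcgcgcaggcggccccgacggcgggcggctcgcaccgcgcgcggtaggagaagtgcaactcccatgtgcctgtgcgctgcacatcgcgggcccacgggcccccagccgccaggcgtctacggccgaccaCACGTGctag
Jam2, chr16:84769475-84769674, plus strand: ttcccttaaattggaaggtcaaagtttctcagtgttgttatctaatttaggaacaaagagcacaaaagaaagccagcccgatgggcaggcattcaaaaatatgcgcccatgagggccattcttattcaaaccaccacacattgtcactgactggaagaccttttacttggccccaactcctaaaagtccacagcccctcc
Bcar3, chr3:122138073-122138272, plus strand: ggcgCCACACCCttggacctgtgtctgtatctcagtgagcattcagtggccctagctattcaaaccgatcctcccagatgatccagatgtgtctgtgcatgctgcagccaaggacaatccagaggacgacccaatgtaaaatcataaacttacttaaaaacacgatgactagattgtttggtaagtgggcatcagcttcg
The Dll3 window held 29 CpG dinucleotides, a CTCF string and an E-box, whereas the Jam2 window held 2 CpG and none of the strings. The next 4 are CHD4 sites near pluripotency genes that hold the octamer or the ESRRB string, with MBD3 (Dppa3 and the Esrrb intron), with an MBD3 peak in the replicate 1 list alone (Esrrb near the start) or with no MBD3 peak (Klf5).
Dppa3, chr6:122574669-122574868, plus strand: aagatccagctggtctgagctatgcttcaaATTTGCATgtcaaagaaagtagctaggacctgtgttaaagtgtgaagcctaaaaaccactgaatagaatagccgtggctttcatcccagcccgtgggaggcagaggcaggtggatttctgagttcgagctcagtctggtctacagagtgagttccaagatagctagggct
Esrrb near the start, chr12:87811955-87812154, plus strand: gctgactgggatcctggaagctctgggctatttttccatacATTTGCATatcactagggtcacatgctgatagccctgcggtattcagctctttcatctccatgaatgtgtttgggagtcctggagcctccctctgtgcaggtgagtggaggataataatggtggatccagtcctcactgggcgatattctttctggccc
Esrrb intron, chr12:87842639-87842838, plus strand: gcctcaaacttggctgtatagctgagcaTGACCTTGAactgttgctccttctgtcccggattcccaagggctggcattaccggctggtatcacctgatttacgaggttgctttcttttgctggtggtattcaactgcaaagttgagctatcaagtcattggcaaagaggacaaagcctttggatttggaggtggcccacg
Klf5, chr14:99724895-99725094, plus strand: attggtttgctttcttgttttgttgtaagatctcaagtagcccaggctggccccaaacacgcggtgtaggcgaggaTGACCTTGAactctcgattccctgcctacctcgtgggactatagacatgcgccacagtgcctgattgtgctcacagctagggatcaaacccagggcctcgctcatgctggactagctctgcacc
A string alone did not set the class, since the ESRRB string of the Esrrb intron and of the Klf5 site was the same. The other 3 sites chosen in this way, near Pou5f1, Sall4 and Klf2, held the ESRRB string and had no MBD3 peak.

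The first question was how much of CHD4 binding came with MBD3. MBD3 sites were found at 15.7% of CHD4 sites (95% exact interval 14.9% to 16.5%), and 5044 CHD4 sites (61.2%) had no MBD3 peak in either list. The MBD3 lists were short, with 2344 peaks in replicate 1 and 7551 in replicate 2, compared with 11712 and 29974 for CHD4. The remaining sites without an MBD3 site had a peak in the replicate 2 list alone (1547), in the replicate 1 list alone (340) or in both lists at separate places (22). The share therefore depended on the MBD3 list. It was 20.1% with replicate 1 alone and 34.4% with replicate 2 alone, and it fell to 5.02% when every CHD4 replicate 2 peak was counted as a site. With every CHD4 replicate 1 peak counted instead, without the list whose names mention a Zfp219 BAC, the share was 11.3%. All exact intervals of shares cover counting error only, and the tests below compare sites, with standard errors grouped by 1 Mb windows, so that their p-values do not measure the spread between cultures.

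MBD3 was found at the stronger CHD4 sites. Each peak carries a value of the authors on a −log10 scale, which ranks peaks within a list. In CHD4 replicate 1 the median value was 11.8 at sites with MBD3 and 8.50 at sites without, and in replicate 2 it was 16.3 and 11.2. The replicate 2 value of a site was the highest among the replicate 2 peaks that overlapped it, and a wider site could overlap more of them. On the log2 scale the mean value was higher by 0.46 in replicate 1 (95% interval 0.42 to 0.50) and by 0.48 in replicate 2 (0.44 to 0.52, adjusted p = 6.24e-113, n = 8232 sites). The size depended on the lists: without MBD3 replicate 1 the difference was 0.17 in replicate 1 and 0.29 in replicate 2. It was 0.76 in replicate 2 without CHD4 replicate 1, and 0.56 in replicate 1 without CHD4 replicate 2. Peak width followed, since the median CHD4 peak measured 362.5 bp with MBD3 and 233 bp without it. The log2 difference in width was 0.59 (interval 0.54 to 0.63). It was 0.33 without MBD3 replicate 1, 0.97 without CHD4 replicate 1 and 0.67 without CHD4 replicate 2. A wider peak is more easily overlapped, and when midpoints within 500 bp were required in place of overlap the log2 difference in value was 0.40 in replicate 1 and 0.44 in replicate 2.

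Across quintiles of the CHD4 replicate 1 value the share of sites with MBD3 was 5.95%, 8.67%, 12.4%, 18.5% and 33.3% from the lowest to the highest. With quintiles of the replicate 2 value it was 5.86%, 7.41%, 13.8%, 20.9% and 30.8%. Both CHD4 lists thus gave the same order, yet only 538 of the 1618 sites in the top quintile of replicate 1 had an MBD3 site. In that top quintile MBD3 was present at 63 of 305 sites in TSS windows (20.7%, interval 16.3% to 25.6%) and at 475 of 1313 sites elsewhere (36.2%, interval 33.6% to 38.8%). The strongest CHD4 site of replicate 1 lay among those with no MBD3 peak in either list, in an intron of Bcar3 (chr3:122137824-122138522), 15475 bp downstream of a start, with values of 140.6 in replicate 1 and 160.7 in replicate 2.

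**Figure D1:**
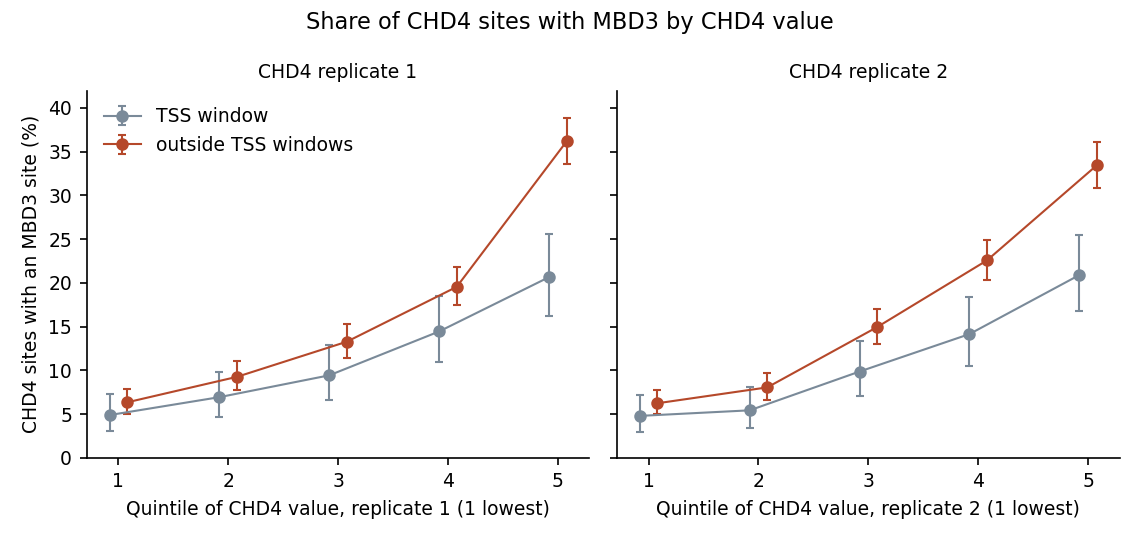
Share of CHD4 sites with an MBD3 site (y axis, %) by quintile of the CHD4 value (x axis, 1 lowest) in replicate 1 (left) and replicate 2 (right), for sites in TSS windows (grey) and outside them (red), with 95% exact intervals. In the highest quintile of replicate 1 the share was 20.7% in TSS windows and 36.2% outside.

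CHD4 sites with MBD3 lay farther from transcription starts. A TSS window reached from 1 kb upstream to 5 kb downstream of the start of a protein-coding transcript, and it held 200 of 1292 CHD4 sites with MBD3 (15.5%, interval 13.5% to 17.6%) and 1697 of 6940 without (24.5%, interval 23.4% to 25.5%). The odds ratio, the odds of a TSS position with MBD3 over those without, was 0.566 (interval 0.479 to 0.669, adjusted p = 2.4e-11, n = 8232). Sites with no MBD3 peak in either list lay there at 26.6%. With CHD4 value and width in the model the odds ratio was 0.642 (interval 0.537 to 0.768).

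The gap was largest next to the start. Within 1 kb of a start lay 9.37% of sites with MBD3 and 17.2% of sites without, and between 1 and 5 kb the shares were 14.8% and 15.2%. Beyond 100 kb they were 11.3% and 6.99%. The median distance was 17892 bp with MBD3 and 12093 bp without, a difference of 0.24 on the log10 scale (interval 0.18 to 0.29, adjusted p = 4.42e-19, n = 8232). Without MBD3 replicate 2 the difference was 0.14 (interval 0.088 to 0.19). Seen from CHD4, MBD3 was present at 10.5% of sites in TSS windows, 14.5% in exons, 16.9% in introns, 17.5% between genes and 23.1% of sites more than 100 kb from a start. Sites upstream of the nearest start made up 55.6% of those with MBD3 and 53.5% of those without.

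**Figure D2:**
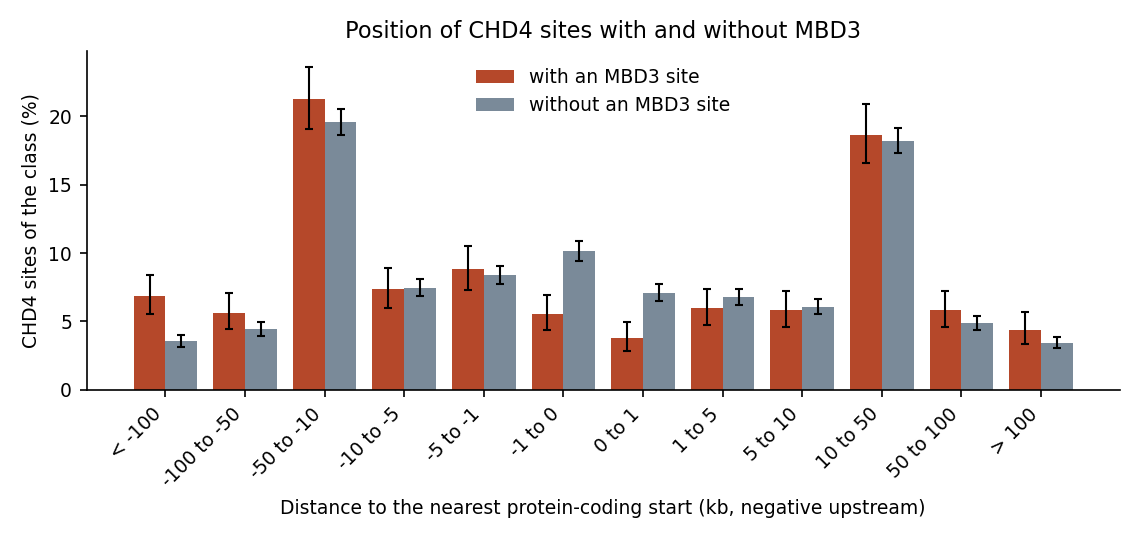
Share of CHD4 sites of each class (y axis, %) by distance to the nearest protein-coding start (x axis, kb, negative upstream), for 1292 sites with MBD3 (red) and 6940 without (grey), with 95% exact intervals. From 1 kb upstream to the start lay 5.57% of sites with MBD3 and 10.1% of sites without.

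CHD4 sites with MBD3 were also poorer in CpG and GC. They held 3.68 ± 5.23 CpG dinucleotides in the central 200 bp (mean ± SD, n = 1292) and those without held 5.11 ± 6.43 (n = 6940), a difference of −1.43 (interval −1.76 to −1.10, adjusted p = 3.93e-17). GC content was 50.1 ± 8.63% and 52.1 ± 9.10%, a difference of −1.99 percentage points (interval −2.52 to −1.47). Both differences were smaller without MBD3 replicate 2, with −0.459 CpG (interval −0.810 to −0.109) and −0.706 percentage points of GC (interval −1.23 to −0.186), and larger without CHD4 replicate 1, with −2.16 and −3.05. Leaving out CHD4 replicate 2 gave −1.396 CpG and −1.725 percentage points of GC. The difference in CpG was smaller outside TSS windows, −0.559 (interval −0.785 to −0.332), a comparison chosen after the data were seen. In both classes the CpG number lay above the 1.67 of genome windows and below the 12.0 around all protein-coding starts.

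Among the strongest sites of each class, those in TSS windows with MBD3 included Ezh2, the catalytic subunit of PRC2 (609 bp downstream of a start, CHD4 value 37.8 in replicate 1), and Mtf2, a PRC2 accessory subunit (4347 bp downstream, 31.4). In CHD4 replicate 2 their values were 48.8 and 23.6. The MBD3 values were 55.4 and 42.7 in replicates 1 and 2 at Ezh2 and 11.8 and 10.4 at Mtf2. In TSS windows with no MBD3 peak the leading sites were at Dll3, which encodes a Notch ligand (chr7:29083840-29084236, 2766 bp downstream, 98.9 in replicate 1 and 134.8 in replicate 2), Gpcpd1 (65.4 and 52.9) and Rfwd3, a ubiquitin ligase (63.2 and 97.2).

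Outside TSS windows the leading sites with MBD3 lay 4793 bp upstream of Jam2, which encodes a junctional adhesion molecule (chr16:84769287-84769862, CHD4 values 83.8 and 29.1, MBD3 values 28.5 and 30.8), and near Vmn2r-ps106 and 2610019F03Rik, 24209 and 39970 bp upstream. The site near 2610019F03Rik spanned 1290 bp and held the ESRRB string. Those with no MBD3 peak lay in the Bcar3 intron, 4431 bp upstream of Bcl3 (62.4 and 44.6) and in an intron of Pde4a (57.4 and 21.2). CHD4 peaks in NPCs overlapped the Ezh2, Gpcpd1, Rfwd3 and Bcar3 sites and not the others named here.

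The strings were then counted in the central 200 bp of all CHD4 sites. Strings of pluripotency factors were more frequent where MBD3 was present, and the E-box and the CTCF string were less frequent. The octamer lay at 69 of 1292 sites with MBD3 (5.34%, interval 4.18% to 6.71%) and at 168 of 6940 without (2.42%, interval 2.07% to 2.81%). The odds ratio was 2.27 (interval 1.72 to 3.01, adjusted p = 3.07e-08 over 12 strings, n = 8232). The SOX2 string was found at 7.28% and 3.63% (odds ratio 2.08, interval 1.63 to 2.65, adjusted p = 2.17e-08, n = 8232). Genome windows taken every 100 kb held the octamer at 1.90% and the SOX2 string at 3.50%, closer to the sites without MBD3 than to those with it. CHD4 sites with no MBD3 peak in either list held these strings at 1.47% and 2.72%, below the genome windows. Windows around all protein-coding starts held them at 0.781% and 1.87%.

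The ESRRB and KLF strings were more frequent than in genome windows in both classes. The ESRRB string, a half-site of the orphan receptor ESRRB, was present at 4.49% of sites with MBD3 and 2.85% without (odds ratio 1.60, interval 1.18 to 2.18, adjusted p = 0.00536, n = 8232), compared with 0.466% of genome windows. Counting only ESRRB strings not preceded by AGT, as chosen after the printed sequences were seen, gave an odds ratio of 1.73 (interval 1.197 to 2.485). The KLF string was present at 8.44% and 6.50% (odds ratio 1.33, adjusted p = 0.0123, n = 8232), compared with 1.07% of genome windows, and outside TSS windows this difference missed the threshold after adjustment (odds ratio 1.26, interval 1.007 to 1.583). The TEAD string was found at 18.2% and 12.1% (odds ratio 1.62, interval 1.38 to 1.89, adjusted p = 2.17e-08, n = 8232) and in 10.9% of genome windows.

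The E-box CACGTG, bound by MYC and related factors, was found at 2.86% of sites with MBD3 and 5.22% without (odds ratio 0.536, interval 0.384 to 0.748, adjusted p = 0.000579, n = 8232). The CTCF string, a core part of the motif of the insulator protein CTCF, was found at 56 sites with MBD3 (4.33%) and 560 without (8.07%), giving an odds ratio of 0.516 (interval 0.385 to 0.692, adjusted p = 3e-05, n = 8232). Both strings are rich in GC, and genome windows held them at 1.96% and 1.42% and windows around starts at 5.20% and 8.58%. With GC percent in the model the odds ratios were 0.582 for the E-box and 0.586 for the CTCF string, and outside TSS windows they were 0.561 and 0.579. A longer CTCF string, AGGGGGCGC, chosen after these shares were seen, lay at 8 sites with MBD3 (0.619%) and 116 without (1.67%), with an odds ratio of 0.366 (interval 0.181 to 0.743).

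No difference past the threshold was found for the other strings tested. The interval of the odds ratio ran from 0.709 to 1.17 for the AP-1 string, from 0.852 to 1.31 for the telomere unit, from 0.924 to 2.58 for the STAT3 string, from 0.263 to 1.26 for the ETS string and from 0.0737 to 4.83 for the YY1 string. The NRF1 string lay at 0 of 1292 sites with MBD3, which allows up to 0.285%, and at 14 of 6940 without, and could not be fitted. Sites with 1 of the octamer, SOX2, ESRRB and KLF strings had MBD3 at 23.7% (interval 21.4% to 26.2%), compared with 14.2% of sites with none (interval 13.4% to 15.0%). The 75 sites with 2 of these strings were at 22.7% (interval 13.8% to 33.8%). A match is a description of the DNA and does not show that the factor was bound.

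**Figure D3:**
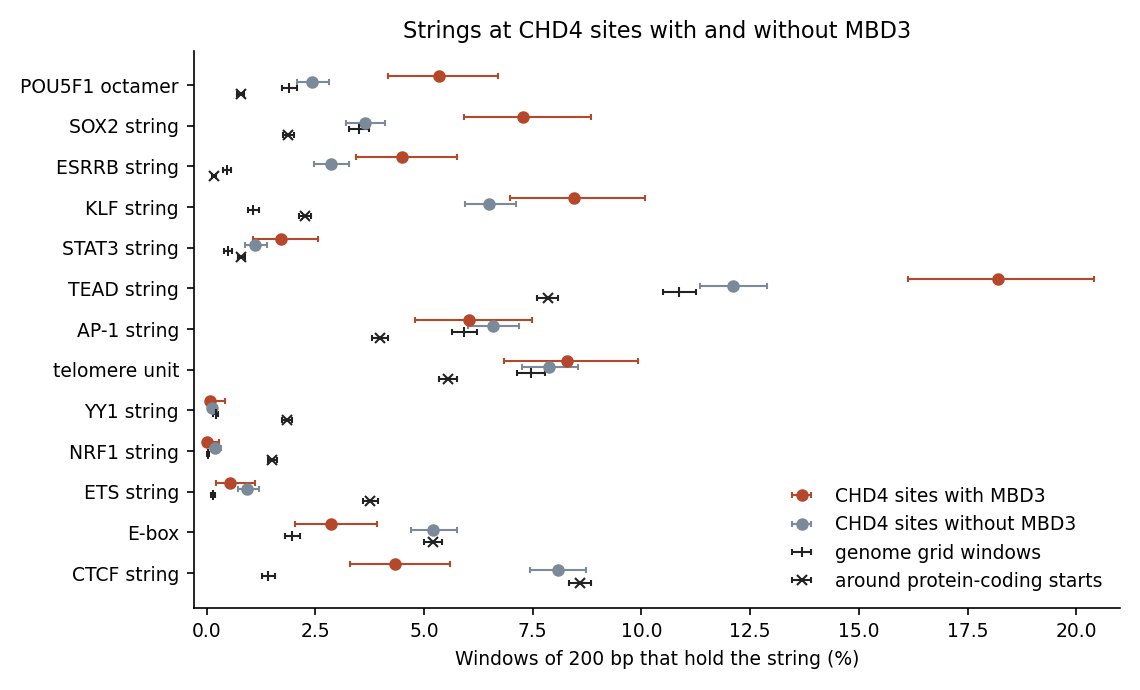
Share of 200 bp windows that hold each string on either strand (x axis, %) at CHD4 sites with MBD3 (red) and without (grey), in genome windows (bars) and around protein-coding starts (crosses), with 95% exact intervals. The octamer lay at 5.34% of sites with MBD3 and 2.42% without, and the CTCF string at 4.33% and 8.07%.

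Other proteins of the study were compared at the same sites. ZFP296, a zinc finger protein, had a peak at 571 of 1292 CHD4 sites with MBD3 (44.2%, interval 41.5% to 47.0%) and at 696 of 6940 without (10.03%, interval 9.33% to 10.8%), giving an odds ratio of 7.11 (interval 6.17 to 8.18, adjusted p = 8.59e-163, n = 8232). With every CHD4 replicate 2 peak taken as a site, that is without CHD4 replicate 1, the odds ratio was 13.7 (interval 12.1 to 15.5). With every CHD4 replicate 1 peak taken as a site, that is without CHD4 replicate 2, it was 9.45 (interval 8.23 to 10.8). Without MBD3 replicate 2 it was 6.26 (interval 5.49 to 7.14). It was 17.3 (interval 14.4 to 20.8) when the class without MBD3 held only sites with no MBD3 peak in either list. SIN3A, the scaffold of another deacetylase complex, was found at 52.2% and 22.1% in the list without spike-in (odds ratio 3.86, interval 3.38 to 4.40) and at 36.5% and 12.8% in the list with spike-in (odds ratio 3.91, interval 3.41 to 4.49). These differences held with CHD4 value and width in the model, with odds ratios of 5.41, 3.398 and 3.26. Outside TSS windows, a comparison chosen after the data were seen, the odds ratios were 7.24, 5.62 and 6.18.

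Combining these lists ordered the CHD4 sites further. With neither a ZFP296 peak nor SIN3A in both lists, 558 of 6257 CHD4 sites had MBD3 (8.92%, interval 8.22% to 9.65%). The share was 23.02% of 708 sites with SIN3A in both lists and no ZFP296, 38.7% of 912 sites with ZFP296 but without SIN3A in both lists, and 61.4% of 355 sites with ZFP296 and SIN3A in both lists (interval 56.1% to 66.5%). Of the sites with SIN3A in both lists and no ZFP296, 61.2% lay in TSS windows, compared with 12.2% of those with ZFP296 but without SIN3A in both lists. Taken in the same order, the 4 groups had a median CHD4 value in replicate 1 of 8.66, 8.53, 9.63 and 11.95.

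NPC lists ran in opposite directions for the 2 subunits. An NPC CHD4 peak was present at 8.59% of ESC CHD4 sites with MBD3 (interval 7.12% to 10.2%) and 13.9% of those without (interval 13.1% to 14.8%), giving an odds ratio of 0.581 (interval 0.468 to 0.720, adjusted p = 7.03e-07, n = 8232). An NPC MBD3 peak was present at 53 sites with MBD3 (4.10%) and 83 without (1.196%), giving an odds ratio of 3.53 (interval 2.46 to 5.07, adjusted p = 8.72e-12, n = 8232). The NPC CHD4 difference rested on the ESC replicate 1 list: with every CHD4 replicate 2 peak taken as a site, the odds ratio was 0.879 (interval 0.720 to 1.07) and no longer passed the threshold. With every CHD4 replicate 1 peak taken as a site, the odds ratio was 0.733 (interval 0.592 to 0.908) and passed it. Each NPC factor has 1 list and ZFP296 has 1 list, so these differences have no replicate of their own.

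**Figure D4:**
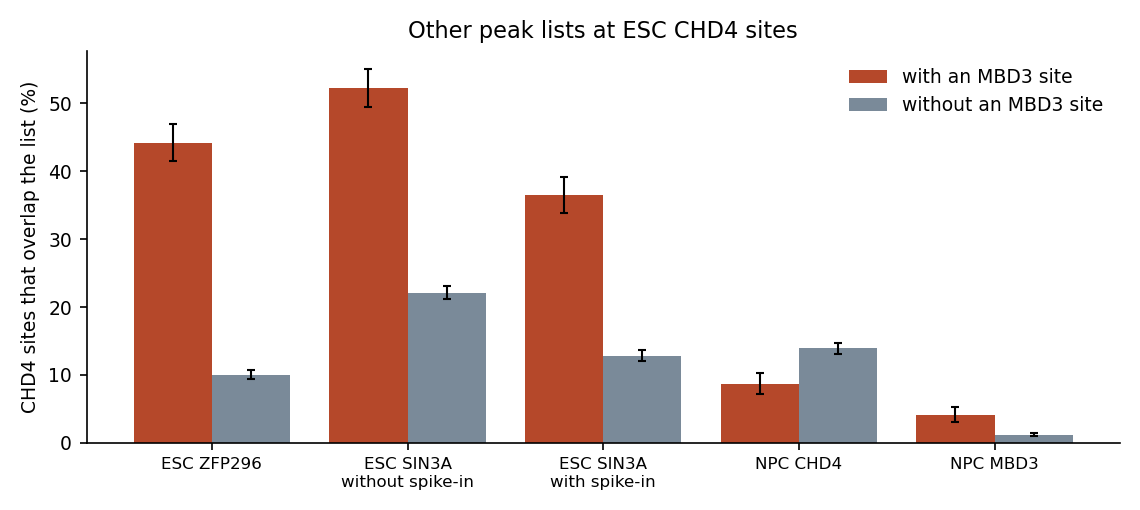
Share of ESC CHD4 sites that overlap a peak of each other list (y axis, %), for sites with MBD3 (red) and without (grey), with 95% exact intervals. ZFP296 was at 44.2% and 10.03%, and NPC CHD4 at 8.59% and 13.9%.

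Clustering along the genome was compared next. Another CHD4 site lay within 10 kb of 62.4% of sites with MBD3 (interval 59.7% to 65.0%) and of 51.7% of sites without (interval 50.5% to 52.9%), giving an odds ratio of 1.55 (interval 1.36 to 1.76, adjusted p = 1.61e-11, n = 8232). The class from MBD3 replicate 2 alone gave 1.10 (interval 0.996 to 1.204, adjusted p = 0.0611, n = 8232), so this difference rested on MBD3 replicate 1. Without CHD4 replicate 1 the odds ratio was 2.68 (interval 2.32 to 3.09), and without CHD4 replicate 2 it was 1.58 (interval 1.39 to 1.80). With CHD4 value and width in the model the odds ratio was 1.21 (interval 1.05 to 1.38).

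CHD4 sites were joined into clusters where neighbours lay within 10 kb. MBD3 was present at 12.7% of the 3836 lone sites, at 15.97% of sites in clusters of 2, at 19.9% in clusters of 3, at 19.2% in clusters of 4 and at 20.1% in clusters of 5 or more. At least 1 site with MBD3 lay in 120 of the 170 clusters of 5 or more (70.6%, interval 63.1% to 77.3%). These 170 clusters held 1158 sites, so that each had more sites that could carry MBD3 than a smaller cluster, and no test was made. In the 337 clusters of 3 or more sites that held both classes, the site with the highest CHD4 value had MBD3 in 205 (60.8%, interval 55.4% to 66.1%), whereas on average 36.3% of the members of these clusters had MBD3. MBD3 in a cluster was thus often at the strongest CHD4 site, but not always.

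Some of the largest clusters had 1 site with MBD3 or none. The share over all CHD4 sites was 15.7%, and no test was made on single clusters. A cluster of 16 CHD4 sites over 45.5 kb around Gdf15, Lsm4 and Pgpep1 had 1 site with MBD3, as did 15 sites over 32.1 kb at Rbpms. Gdf15 encodes a secreted stress-response factor. Large clusters with no MBD3 site held 10 sites at Gtf2ird1 and 8 at Bcl3, a cofactor of NF-kappaB. Both nevertheless had an MBD3 peak in at least 1 list within their bounds.

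Genes were then described by the CHD4 sites within 50 kb of any of their starts, which says only that a site is nearby. A site can count for several genes. Over all 22219 protein-coding genes, 32.9% had a CHD4 site and 7.39% had a CHD4 site with MBD3, and 12.6% of all gene and site pairs had MBD3. Pou5f1, Sox2 and Nanog, the core pluripotency factor genes, all had both, with 7 of 30 sites carrying MBD3 (23.3%). Of 13 genes of naive pluripotency factors, 10 had a CHD4 site and 9 had one with MBD3. Of their 75 sites, 12 carried MBD3 (16%), beside 12.6% over all genes. These lists were chosen with earlier results of these data known, and no test was made on them.

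At Pou5f1 the 4 CHD4 sites with MBD3 lay close together, with midpoints 3488, 1936, 922 and 105 bp upstream of a start. Their CHD4 values in replicate 1 were 15.8, 17.4, 20.1 and 9.40, and ZFP296 had a peak at each of them. Between them, 3041 bp upstream, lay a CHD4 site with an MBD3 peak in the replicate 1 list only. The 11 other CHD4 sites within 50 kb lacked MBD3 sites, although the site 35320 bp downstream had a CHD4 value of 23.1. At Sox2 the site with MBD3 lay 3923 bp downstream of the start (value 16.8 in replicate 1 and 22.2 in replicate 2) and held the SOX2 string and an E-box. At Nanog the sites with MBD3 lay 5081 and 4444 bp upstream and shared 1 MBD3 site, while the promoter site 74 bp upstream (22.3 and 34.6), had an MBD3 peak in the replicate 1 list only.

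Among the naive factors, Esrrb had 3 CHD4 sites with MBD3 of 7 and Prdm14 had 2 of 5. Klf2 had 1 of 14, Tbx3 1 of 12, Sall4 1 of 12, Zfp42 1 of 10 and Dppa3 1 of 7. At Zfp42 the site with MBD3 had the highest replicate 1 value of the 10, 13952 bp upstream of a start (34.9 and 22.1), and it held a KLF string. At Tbx3 this was not so: the site with MBD3 had a replicate 1 value of 4.86, whereas the site 20643 bp downstream, with values of 32.0 and 63.6, had no MBD3 peak. Klf5, Nr5a2 and the genes named above had MBD3, Gbx2 had 2 CHD4 sites without it, and Klf4, Nr0b1 and Stat3 had no CHD4 site within 50 kb.

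Genes of the LIF, BMP, Nodal and FGF pathways, which act on self-renewal of ESCs or on its exit, had MBD3 at 27 of 85 CHD4 sites within 50 kb (31.8%). The share over all genes was 12.6%. Within 10 kb these genes had MBD3 at 12 of 37 sites (32.4%) and the 3 core pluripotency genes at 7 of 16 (43.75%). Over all genes the share within 10 kb was 12.65%. Of the 19 signalling genes, 16 had a CHD4 site and 13 had one with MBD3, beside 32.9% and 7.39% of all genes. Among the genes around ERK signalling, Etv5, an ETS transcription factor, had MBD3 at 5 of 10 CHD4 sites, Spry2, a feedback inhibitor, at 4 of 8, and Fgf4, the FGF ligand of ESCs, at 3 of 5. Spry4 had MBD3 at 1 of 3, and Dusp6 and Etv4 had no CHD4 site within 50 kb. In the LIF pathway, Socs3, a feedback inhibitor of STAT3, had MBD3 at 3 of 8 sites, the receptor gene Lifr at 2 of 5 and its partner Il6st at its 1 site. In the Nodal pathway, Nodal had MBD3 at 1 of 11 sites, Tdgf1, which encodes its co-receptor, at 2 of 6, and its antagonists Lefty1 and Lefty2 at 0 of 4 and 0 of 5. Id1, a BMP target, had 6 CHD4 sites and no MBD3 site, and Id3 had MBD3 at 1 of 4.

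PRC2 genes had MBD3 at 8 of 31 CHD4 sites (25.8%), beside 12.6% over all genes. Of these 8, 4 were at Jarid2, which had 13 CHD4 sites, and both CHD4 sites near Eed had MBD3. Of the 9 PRC2 genes, 7 had a CHD4 site and 4 had one with MBD3, beside 32.9% and 7.39% of all genes. Of 15 genes for NuRD subunits, 8 had a CHD4 site and 1 (6.67%) had one with MBD3, beside 7.39% of all genes. Of their 20 sites, 1 carried MBD3 (5.00%), near Hdac2, beside 12.6% over all genes, and no test was made. Mta3 had 6 CHD4 sites, Gatad2a 4, Chd4 3 and Rbbp4 3, none with MBD3. Of 11 genes for partners of NuRD, 9 had a CHD4 site and 5 had one with MBD3, beside 32.9% and 7.39% of all genes. Of their 51 sites, 9 carried MBD3 (17.6%), beside 12.6% over all genes. The partner genes with MBD3 included Sall1 (3 of 9), Zfp296 (2 of 4) and Zfp219 (2 of 7). Adnp and Cbx5, which encodes an HP1 protein, had 4 and 5 CHD4 sites, none with an MBD3 site. At Adnp, 3 of the 4 had no MBD3 peak in either list. Cbx1 and Cbx3, which encode other HP1 proteins, had MBD3 at 1 of 3 and 0 of 1 sites.

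Genes of the formative state that follows naive pluripotency had MBD3 at 4 of 21 sites (19.05%), beside 12.6% over all genes, with Otx2 at 2 of 5 and Dnmt3a at 0 of 3. Of the genes of later lineages, 0 of 9 neural progenitor genes, 3 of 12 mesoderm and endoderm genes and 2 of 10 germline genes had a CHD4 site within 50 kb, beside 32.9% of all genes. None of these had one with MBD3, beside 7.39% of all genes. Genes of the SIN3 complex had MBD3 at 1 of 10 sites. Of 80 genes for ribosomal proteins, 43 (53.75%) had a CHD4 site and 9 (11.25%) had one with MBD3, beside 32.9% and 7.39% of all genes. Of their 95 sites, 10 carried MBD3 (10.5%), near the 12.6% over all genes.

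Over all genes, the highest number of CHD4 sites with MBD3 within 50 kb was 5. It was reached at Etv5, at Cdh1, which encodes E-cadherin, at Tgif1, a repressor of TGF-beta signalling, at Grhl3, an epithelial transcription factor, and at Rnf220, Nlrp12, AU018091, Gm10073 and 6430527G18Rik. Cdh1 had 12 CHD4 sites, 2 of those with MBD3 in TSS windows, and Rnf220 had 15. Among genes with no MBD3 peak of either list within 50 kb, Wwc2, a regulator of the Hippo pathway, had 7 CHD4 sites. Hoxa3, Hoxa4 and Hoxa5, which are neighbours and count the same region, had 6 each, as did Nfix, a transcription factor, Nr0b2, an orphan nuclear receptor, Rasal1, an inhibitor of RAS, and Rnf216.

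**Figure D5:**
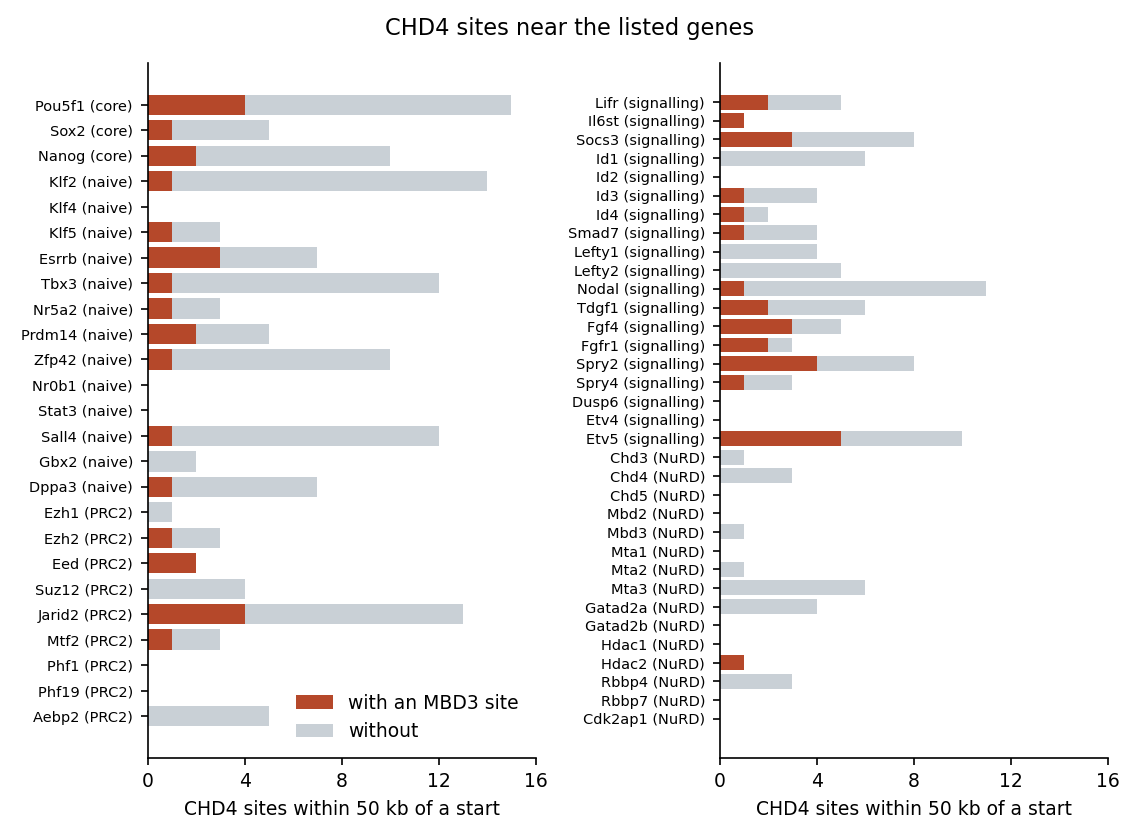
Number of CHD4 sites within 50 kb of a start (x axis), with an MBD3 site (red) and without (grey), for core, naive and PRC2 genes (left) and signalling and NuRD genes (right). Etv5 had MBD3 at 5 of 10 sites, and the 15 NuRD genes had MBD3 at 1 of 20.

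The reverse class was small. A CHD4 site was missing at 234 of the 1508 MBD3 sites. Of the 234, 186 had a peak in CHD4 replicate 2 alone, 18 in CHD4 replicate 1 alone and 4 in both at separate places. This left 26 with no peak in either list. For the 186, CHD4 rested only on the longer list of 29974 peaks, whose names mention a Zfp219 BAC. They were weaker, with a median MBD3 value of 7.36 in replicate 1 compared with 9.20, and lay in TSS windows at 23.1% (interval 17.8% to 29.0%) compared with 15.7%. A CHD4 site lay within 10 kb of 111 of them. The strongest was 6722 bp downstream of a start of Ptf1a, a transcription factor of pancreas and cerebellum (chr2:19373715-19374308, MBD3 value 19.7), with no CHD4 peak in either list and the nearest CHD4 site 59336 bp away. The next lay near Fam43b, with a CHD4 peak in replicate 1 alone, and near Arl4c, with one in replicate 2 alone.

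Where MBD3 and CHD4 coincided, their peaks were centred on nearly the same position. The midpoints of overlapping MBD3 and CHD4 replicate 1 peaks were a median of 63 bp apart over 1274 MBD3 sites, and 69.9% were within 100 bp. The midpoints of replicates of the same factor were a median of 55 bp apart for MBD3 and 55 bp for CHD4. CHD4 replicates differed by 65 bp at sites with MBD3, where peaks were wider, and by 54 bp at sites without.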

How the data were processed

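ChIP-seq peak lists of 9 samples were analysed, grouped by sample title; the other 27 of the 36 samples were not used here. Per the methods, the authors mapped reads to mm9 with BWA, removed duplicates and called peaks per sample with MACS (the processing notes give MACS2 2.0 and SAMtools). Each deposited peak carries a value of the authors on a −log10 scale (p or q not stated), which cannot be compared between lists. Peak names give a threshold of 0.001, or 0.0001 for SIN3A without spike-in, and normalization to 17 M reads for 7 lists. Read counts per peak were not used here, so the depth behind single peaks is unknown.

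Sites on chromosomes 1 to 19, X and Y (8232) were placed on GENCODE vM1 protein-coding transcripts by peak midpoint; the 14 sites on other contigs entered only the counts of sites. Outcomes were compared between classes by logistic models or linear models (log2 value, log2 width, log10 of distance + 1) with Wald tests, standard errors grouped by 1 Mb windows, and Benjamini-Hochberg adjustment over 8 site properties, 12 strings and 5 lists at a threshold of 0.05. The models were tested on simulated data. Intervals of shares are exact (Clopper-Pearson, 95%). Genome windows were 200 bp every 100 kb.

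Named sites were the 3 with the highest replicate 1 value in each class (TSS window or outside, MBD3 site or no MBD3 peak) and among MBD3 sites without CHD4, and the 3 largest clusters with and without MBD3. Named genes were the 10 with the most sites with MBD3, the 10 with the most CHD4 sites and no MBD3 peak (ties by symbol), and fixed lists. Sequences were those of the leading site of each class and of sites with the octamer or ESRRB string near core or naive genes. Some of the sites and clusters chosen by these rules are not reported here. Members and lists were chosen with earlier results of these data known. Alternatives were single lists, a replicate block, a stricter threshold, midpoints, covariates and other windows. Python 3.11.15, numpy 2.4.6, pandas 2.3.3, scipy 1.17.1, statsmodels 0.14.6, matplotlib 3.10.9, pyfaidx 0.9.0.4 and samtools 1.23.1 were used.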

Additional observations from a re-analysis of the deposited data

How the results depend on the processing

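The class comparisons of CHD4 value, width, TSS window, TSS distance, GC content and CpG number kept their direction and side of the threshold under all alternatives run for them, and the neighbour comparison did so except with the class from MBD3 replicate 2 alone (odds ratio 1.10). Leaving out 1 list at a time gave 5.02% to 34.4% of CHD4 sites with MBD3 and neighbour odds ratios of 1.10 to 2.68. The share was 16.9% with midpoints within 500 bp and 20.4% when sites with MBD3 in 1 list were left out. Genes near a CHD4 site with MBD3 made up 2.17% within 10 kb and 13.1% within 100 kb. The replicate block stacked lists of the same number: 17.1% of peaks then had MBD3, 12 of 13 strings passed the threshold in place of 7, the TSS odds ratio was 0.562, and no call of the site properties or other lists changed. The numbers name no shared culture, so the samples share only a number. Of 210 alternative values for single strings and lists, 4 lost the threshold (the KLF string under 3 settings, NPC CHD4 without CHD4 replicate 1), 12 newly passed it (STAT3, ETS, YY1 or telomere strings) and 1 reversed (AP-1 string, central 500 bp, odds ratio 1.02). The cause was not tested. An MBD3 site needed a peak in both lists, and the lists hold no signal below the authors' threshold.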
